A study of Mus musculus with 17 samples.

Results

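Polyadenylated RNA of mouse male germ cells holds transcripts without a known protein product as well as messenger RNAs. Described here are 5 such transcripts, 4930470H14Rik, Olfr856-ps1, Gm17644, A630089N07Rik and 2610507I01Rik, out of 23978 genes with usable values in newborn testes and 23974 in spermatocytes. They were found in both gene tables by their names. They had been picked because their levels differed between newborn testes with and without Pld6, so the newborn values in that contrast are the reason for the choice and are given as a description, without a test. All 5 passed the filter on low counts in newborn testes. In spermatocytes only A630089N07Rik and 2610507I01Rik passed it.

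The 17 libraries came from C57BL6/J mice whose mutant lines had been backcrossed to that strain. At postnatal day 0 (P0), whole testes were sequenced from 4 knockouts (KO) of Pld6, 2 of Dnmt3l (spelled Dnmt3L KO in the labels), 3 double knockouts (DKO) of the 2 genes and 2 wild types (WT). At postnatal 3-4 weeks, leptotene/zygotene (L/Z) spermatocytes, cells in early meiotic prophase, were sorted by fluorescence and sequenced from 2 WT, 2 Pld6 KO and 2 Dnmt3l KO samples. A P0 testis is mostly somatic cells, with prospermatogonia as its germ cells. The labels call the samples biological replicates without saying whether each was a separate animal or a pool, so the spread between them may be partly technical.

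Pld6 encodes an enzyme of the mitochondrial outer membrane that is needed to make PIWI-interacting RNAs (piRNAs), the small RNAs of the germ line that direct the cleavage of matching transposon transcripts and the methylation of transposon DNA. The protein made from Dnmt3l has no methyltransferase activity of its own and assists the enzymes that set DNA methylation in fetal male germ cells. Long noncoding RNAs are transcribed, spliced and polyadenylated like messenger RNAs, and many of them begin in or contain pieces of transposons. Olfr856-ps1 carries the remains of an olfactory receptor gene, a class of receptors of the nasal epithelium. No function of the other 4 genes is given in the sources used here.

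In RefSeq GRCm38.p6, 4930470H14Rik is a long noncoding RNA at chr17:4044658-4082995, minus strand. Olfr856-ps1 is a transcribed pseudogene at chr9:19657039-19658680, minus strand. Gm17644 is a long noncoding RNA at chr1:12667563-12673090, plus strand. A630089N07Rik, at chr16:98062512-98082439 on the minus strand, is a long noncoding RNA in RefSeq but is classed as protein-coding by GENCODE vM21, which gives it 6 transcripts. 2610507I01Rik is a long noncoding RNA at chr11:59197793-59202431, minus strand. The longest GENCODE transcript has 1734 bases in 4 exons for 4930470H14Rik, 948 bases in 2 exons for Olfr856-ps1, 3200 bases in 3 exons for Gm17644, 2142 bases in 5 exons for A630089N07Rik and 1360 bases in 2 exons for 2610507I01Rik. Their longest reading frames from an ATG run to 107, 272, 129, 225 and 74 codons in that order, counted by letters alone and not taken as proteins.

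A search made after the values were known compared the 5 transcript sequences with each other. The 3 transcripts 4930470H14Rik, Gm17644 and A630089N07Rik, all of them higher without Pld6, held a common stretch. The first 578 bases of 4930470H14Rik aligned with bases 17 to 635 of Gm17644 on the same strand, with 503 of 625 columns identical (80.5%). A630089N07Rik held the stretch in its last exon on the opposite strand, at bases 560 to 1141, where 509 of 583 columns were identical to 4930470H14Rik (87.3%). Between Gm17644 and A630089N07Rik, 572 of 683 columns were identical (83.75%), again on opposite strands. Pairs that include Olfr856-ps1 or 2610507I01Rik aligned over at most 33 columns. The start of the stretch is shown because it is what those 3 transcripts share and the other 2 lack, from GENCODE vM21 on GRCm38. Capitals in the first line mark bases identical to Gm17644 in the alignment, those in the second bases identical to 4930470H14Rik, and those in the third, which is read from the strand opposite to the transcript, bases identical to 4930470H14Rik. The lines come from chr17:4082696-4082995 (minus strand, exon 1), chr1:12667563-12667862 (plus strand, exon 1) and chr16:98063513-98063812 (plus strand, opposite to exon 5).
4930470H14Rik: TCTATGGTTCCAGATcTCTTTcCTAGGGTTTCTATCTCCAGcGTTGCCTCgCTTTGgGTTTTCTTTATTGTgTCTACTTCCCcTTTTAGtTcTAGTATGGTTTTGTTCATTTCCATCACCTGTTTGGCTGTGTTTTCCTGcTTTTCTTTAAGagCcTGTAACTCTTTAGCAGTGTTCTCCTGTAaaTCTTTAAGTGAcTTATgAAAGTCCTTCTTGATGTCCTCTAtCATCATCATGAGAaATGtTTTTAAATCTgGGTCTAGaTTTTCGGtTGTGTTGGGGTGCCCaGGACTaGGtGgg
Gm17644: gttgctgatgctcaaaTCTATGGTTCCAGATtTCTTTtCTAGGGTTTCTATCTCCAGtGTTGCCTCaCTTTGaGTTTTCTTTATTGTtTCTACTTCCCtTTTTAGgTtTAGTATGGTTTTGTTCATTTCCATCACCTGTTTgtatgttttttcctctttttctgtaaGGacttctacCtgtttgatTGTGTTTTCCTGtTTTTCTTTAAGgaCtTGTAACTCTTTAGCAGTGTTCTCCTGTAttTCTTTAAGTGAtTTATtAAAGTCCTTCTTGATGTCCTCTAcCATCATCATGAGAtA
A630089N07Rik: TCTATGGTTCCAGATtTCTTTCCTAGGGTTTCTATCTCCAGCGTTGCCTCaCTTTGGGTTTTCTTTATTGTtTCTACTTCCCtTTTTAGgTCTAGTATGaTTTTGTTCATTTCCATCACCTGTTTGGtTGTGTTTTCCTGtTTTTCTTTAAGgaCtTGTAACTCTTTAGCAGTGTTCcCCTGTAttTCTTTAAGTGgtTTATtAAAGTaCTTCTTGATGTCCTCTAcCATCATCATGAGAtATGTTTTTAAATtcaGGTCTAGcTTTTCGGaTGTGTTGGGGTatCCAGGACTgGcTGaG
The printed 300 bases held 272, 223 and 270 capitals in that order.

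The stretch is not particular to these genes. Transcripts were cut into words of 20 bases and looked up among 141767 GENCODE transcripts of 55341 genes. Of 4930470H14Rik, 903 bases (52.1%) lay in a word also found in another gene, nearly all in its first 900 bases, and the words were spread over 318 other genes. For Gm17644 the value was 1079 bases (33.7%), mostly in its first 1000 bases, and for A630089N07Rik it was 1797 bases (83.9%), spread over the whole transcript. Olfr856-ps1 shared 134 bases (14.1%) and 2610507I01Rik 172 bases (12.65%), in short pieces. Exact copies as long as a P0 read were rarer. Windows of 100 bases found in another gene made up 37.25% of the windows of 4930470H14Rik, 14.7% of those of Gm17644 and 0.147% of those of A630089N07Rik, against 0 in Olfr856-ps1 and 2610507I01Rik. Counts of the first 2 genes are therefore less certain, since the counting program divides reads that fit several genes. Copies outside annotated transcripts and windows as long as the 50-bp reads at L/Z were not searched. The counts of A630089N07Rik and the other genes are thus not shown to be free of shared reads. No repeat annotation was used here, and whether the stretch belongs to a transposon was not tested.

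**Figure D1:**
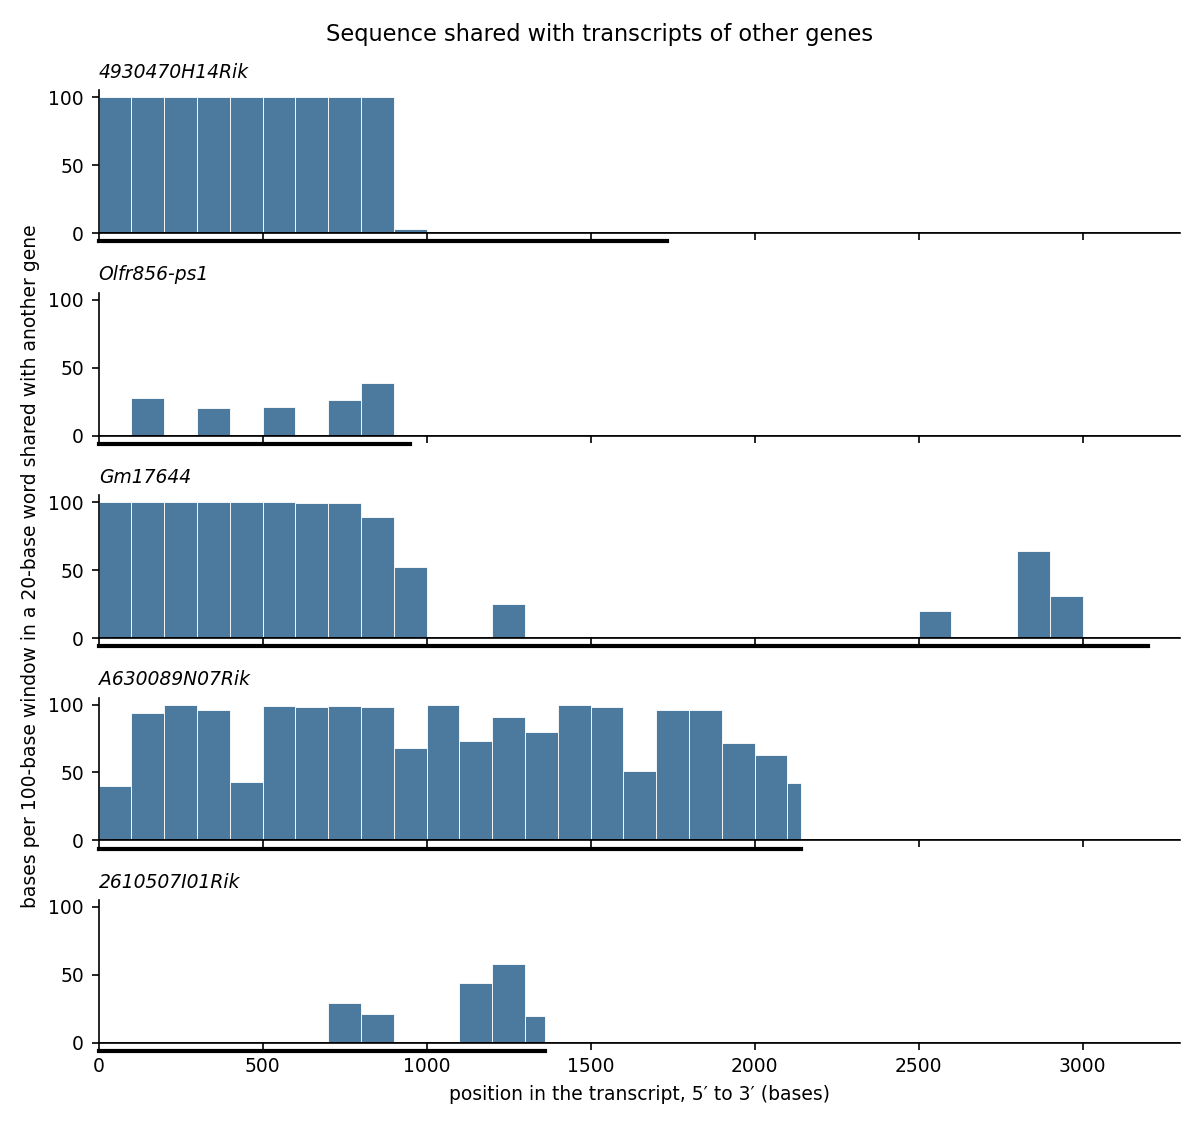
Bases per 100-base window that lie in a 20-base word also found in a transcript of another gene, against the position in the transcript (bases, 5′ to 3′), for the longest transcript of each of the 5 genes. The black line under each panel is the transcript's length. The shared bases fill the first 900 bases of 4930470H14Rik and the start of Gm17644, run through A630089N07Rik and are few in Olfr856-ps1 and 2610507I01Rik.

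Promoter windows were held for 2 of the 5 genes, and they are shown because the gene that was lower without Pld6 and a gene that was higher differed in the CpG content of theirs. Each runs from 250 bases before to 50 bases after the RefSeq start (GRCm38.p6, minus strand, chr11:59202382-59202681 for 2610507I01Rik and chr16:98082390-98082689 for A630089N07Rik), with CpG sites in capitals.
2610507I01Rik: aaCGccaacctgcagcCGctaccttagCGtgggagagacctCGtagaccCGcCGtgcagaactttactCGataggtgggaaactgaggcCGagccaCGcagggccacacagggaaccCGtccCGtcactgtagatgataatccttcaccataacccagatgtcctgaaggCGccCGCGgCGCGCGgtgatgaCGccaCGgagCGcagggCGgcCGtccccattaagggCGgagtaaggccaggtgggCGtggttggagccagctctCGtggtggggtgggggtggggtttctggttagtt
A630089N07Rik: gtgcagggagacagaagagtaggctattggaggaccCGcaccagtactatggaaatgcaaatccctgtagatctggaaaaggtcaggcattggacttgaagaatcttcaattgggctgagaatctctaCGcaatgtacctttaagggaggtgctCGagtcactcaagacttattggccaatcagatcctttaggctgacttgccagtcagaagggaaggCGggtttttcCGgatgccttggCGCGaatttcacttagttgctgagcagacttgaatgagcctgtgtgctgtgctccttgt
The window of 2610507I01Rik, which also covers the start of the gene Mrpl55 (chr11:59202486-59206138), held 25 CpG sites and 63.0% G or C. As many CpG sites were found in 18.4% of 32851 mouse promoter windows, whose median was 7. That of A630089N07Rik held 7 CpG sites and 49.0% G or C, and 52.1% of the windows had as many. A search of both strands found GGGCGG, the core of the GC box, 2 times in 2610507I01Rik, and 35.7% of all windows held it. CCAAT was found 5 times in A630089N07Rik and in 37.4% of all windows. Neither window held the TATA box letters TATAAA, present in 13.6% of all windows, nor the E-box letters CACGTG, present in 7.15%. The E2F letters GGCGGGA (11.3% of all windows), which can overlap the GC box core, and the cyclic AMP response letters TGACGTCA (1.79%) were also found in neither. Such matches describe letters and were not tested as binding sites. The CpG sites in the window of 2610507I01Rik lie partly within Mrpl55, and nothing about the direction of change is read from 2 windows.

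Library depth was 9900346 to 23498968 fragments at P0 and 5194238 to 14578341 at L/Z. Pld6 itself had 57 and 40 counts in WT testes and 66 and 21 in Dnmt3l KO, against 0 to 2 in the 4 Pld6 KO and 0 in the 3 DKO libraries. Dnmt3l had 2 and 1 counts in Dnmt3l KO testes and 0 to 3 in DKO, but it also varied from 6 to 145 among the Pld6 KO libraries. The germ-cell markers Ddx4 and Dazl were detected in every library at both stages. Sertoli cell markers were strong at P0 and were also present in the sorted cells, where Sox9 had 20 to 180 counts. In the L/Z libraries WT replicate 1 and Pld6 KO replicate 1, 8.27% and 8.06% of fragments were 45S pre-ribosomal RNA, against 0.134% to 0.301% in the other 4. At P0 that RNA made up 0.104% to 4.43% of fragments in 7 libraries and had no usable estimate in the Pld6 KO libraries, for which the table lists 0 with a status other than OK, so it could not be compared between testes with and without Pld6. Dnmt3l KO replicate 1 stood apart from the other 10 P0 libraries, with a summed level of 83.56 CPM (counts per 1000000 fragments of the scaled library) for markers of later germ cells against 4.28 to 7.18 CPM, and of 199 CPM for markers of L/Z spermatocytes against 45.4 to 100.3 CPM. Fewer cells of a type and less RNA per cell cannot be told apart in such bulk libraries.

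At P0 the transcripts fell into 4 that were higher and 1 that was lower in testes without Pld6, with or without Dnmt3l. Mean levels of 4930470H14Rik, Olfr856-ps1, Gm17644 and A630089N07Rik were 9.62, 5.61, 3.62 and 2.64 times those with Pld6, and the mean of 2610507I01Rik with Pld6 was 6.56 times that without, or 10.76 times when Pld6 KO replicate 1 was left out. Values below are in CPM unless FPKM is named. FPKM is the deposited value per length of transcript and depth of library.

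4930470H14Rik changed the most of the 4 higher transcripts. Its level was 15.5 and 15.9 CPM in WT and 25.95 and 32.2 CPM in Dnmt3l KO testes. In Pld6 KO testes it was 98.4, 178, 202 and 302 CPM, and in DKO testes 303, 148 and 274 CPM. Every library without Pld6 was above every library with it, the lowest of the former being 3.06 times the highest of the latter. Underlying counts were 182 to 371 with Pld6 and 1192 to 6533 without. The fitted log2 fold change was 3.64 (SE 0.43) for Pld6 KO against WT and 3.06 (SE 0.42) for DKO against Dnmt3l KO.

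The pseudogene Olfr856-ps1 had 37.5 and 26.3 CPM in WT and 51.7 and 39.4 CPM in Dnmt3l KO testes. In Pld6 KO testes it reached 135, 247, 168 and 334 CPM, and in DKO testes 299, 134 and 202.5 CPM. Again the ranges were apart, by a factor of 2.58 between the nearest libraries. On the log2 scale the fitted change was 2.79 (SE 0.40) for Pld6 KO against WT and 2.22 (SE 0.40) for DKO against Dnmt3l KO.

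Gm17644 was at 20.6 CPM in both WT libraries and at 26.5 and 31.9 CPM in Dnmt3l KO. The Pld6 KO libraries had 69.2, 83.3, 47.0 and 123 CPM, and the DKO libraries 155, 79.8 and 73.6 CPM. Its nearest libraries with and without Pld6, Dnmt3l KO replicate 2 and Pld6 KO replicate 3, were 1.47 times apart, the smallest gap of the 5. Fitted log2 fold changes were 1.97 (SE 0.38) for Pld6 KO against WT and 1.81 (SE 0.38) for DKO against Dnmt3l KO.

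A630089N07Rik, the gene that the annotations class differently, had the smallest change. It had 15.1 and 17.4 CPM in WT and 17.3 and 18.6 CPM in Dnmt3l KO testes. Without Pld6 it had 40.7, 38.0, 32.96 and 51.5 CPM in Pld6 KO and 72.1, 31.8 and 48.3 CPM in DKO. The 4 libraries with Pld6 lay close together and below the other 7, whose lowest was 1.715 times their highest. On the log2 scale its change was 1.33 (SE 0.28) for Pld6 KO against WT and 1.497 (SE 0.29) for DKO against Dnmt3l KO.

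2610507I01Rik went the other way. It had 56.9 and 54.6 CPM in WT and 74.8 and 52.4 CPM in Dnmt3l KO testes. In the DKO libraries it was at 5.33, 8.34 and 4.48 CPM, and in Pld6 KO at 30.4, 4.45, 6.85 and 3.82 CPM. Pld6 KO replicate 1 stood apart with 368 counts, against 38 to 80 in the other 3 libraries of its group, and even so lay below every library with Pld6, by a factor of 1.725. In the fit its log2 fold change was −2.28 (SE 0.58) for Pld6 KO against WT and −3.40 (SE 0.66) for DKO against Dnmt3l KO. Without that replicate the former was −3.46.

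**Figure D2:**
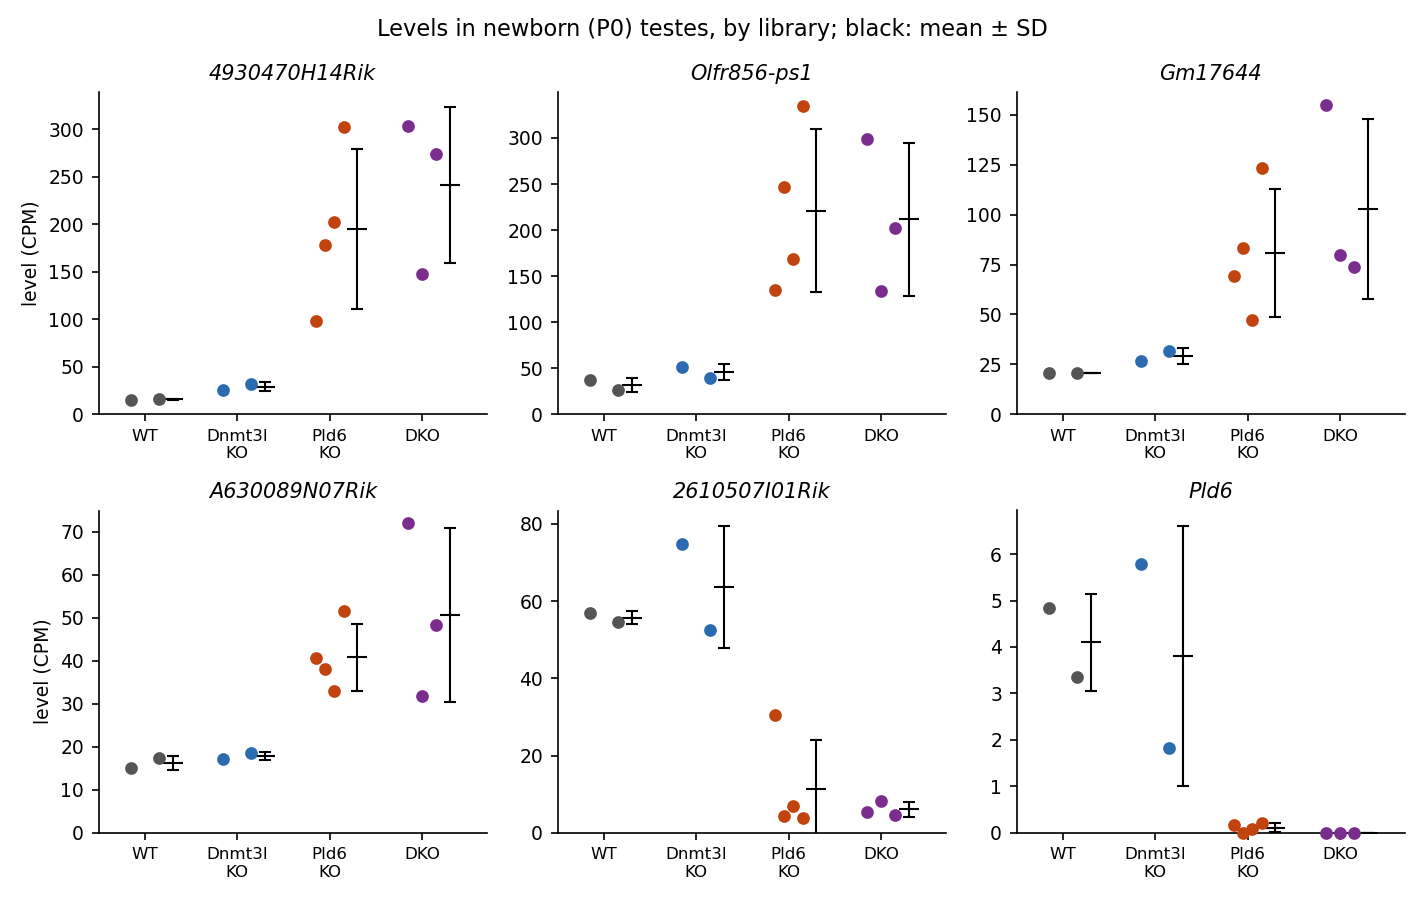
Level in CPM of the 5 transcripts and of Pld6 in each of the 11 P0 libraries, by genotype. Each point is a library, and black marks give the mean ± SD of the group, cut at 0. In the upper 3 panels and for A630089N07Rik the Pld6 KO and DKO points lie above all others, and for 2610507I01Rik they lie below, with 1 Pld6 KO library at 30.4 CPM.

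Across all 11 libraries, the share of tested genes whose ranges with and without Pld6 did not overlap was 0.774% in the direction higher without Pld6 and 0.591% in the direction lower. The members were chosen on that contrast, so nothing is read from their 5 of 5. In the fit over both Pld6 contrasts together, which the choice also used, 7 of 15901 genes (0.044%) had an adjusted p under 0.05 and a fold change over 2. For Pld6 KO against WT 0.00629% of genes were called, 1 gene, and for DKO against Dnmt3l KO 0.0755%, 12 genes, which was 0 without Dnmt3l KO replicate 1, and the combined count was then 4. Without that library the log2 fold changes for DKO against Dnmt3l KO were 2.91, 2.42, 1.68, 1.45 and −3.12 in the order in which the transcripts are named above. By size of the combined log2 fold change the transcripts ranked 18, 38, 64 and 135 from the top and 4 from the bottom of the 15901.

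Per unit of length the 5 transcripts differed less in WT testes than without Pld6. In WT, Olfr856-ps1 (21.25 ± 4.99 FPKM, SD, n = 2) and 2610507I01Rik (20.03 ± 0.404 FPKM) were highest, and their ranges overlapped. 4930470H14Rik (9.85 ± 0.3125 FPKM), A630089N07Rik (8.15 ± 0.895 FPKM) and Gm17644 (6.67 ± 0.0634 FPKM) followed, with ranges that did not overlap. In Pld6 KO testes, Olfr856-ps1 (148 ± 59.7 FPKM, SD, n = 4) and 4930470H14Rik (123 ± 53.0 FPKM) were highest, with broadly overlapping ranges. Gm17644 (26.2 ± 10.4 FPKM) and A630089N07Rik (20.45 ± 3.94 FPKM) also overlapped, and 2610507I01Rik was lowest at 4.09 ± 4.59 FPKM.

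The 4 higher transcripts also varied together. Over the 11 P0 libraries the correlation of log2 CPM between any 2 of them was 0.930 to 0.973, and that with 2610507I01Rik was −0.861 to −0.948. These points share libraries and depth, and the difference in Pld6 gives most of the spread. Within the 7 libraries without Pld6, the correlations among the 4 were 0.529 to 0.821, and those with 2610507I01Rik were −0.302 to −0.866. Among all tested genes, those most like the higher transcripts over the 11 libraries included, besides each other, the zinc finger gene Zfp488 (r = 0.978 with Gm17644, 0.959 with A630089N07Rik and 0.952 with Olfr856-ps1), at 77.5 to 112.5 CPM with Pld6 and 181 to 488.5 CPM without. The others were the olfactory receptor gene Olfr613 (r = 0.961 with Gm17644), at 23.0 to 38.8 CPM with Pld6 and 45.6 to 134 CPM without, and Dio3, which encodes a deiodinase that inactivates thyroid hormone (r = 0.934 with 4930470H14Rik), at no more than 1.51 CPM. Most like 2610507I01Rik were the pseudogene Gm3219 (r = 0.945), Parp11, which encodes an ADP-ribosyltransferase (r = 0.932), and Amd2, which encodes a polyamine synthesis enzyme (r = 0.924), with combined log2 fold changes of −0.44, −0.36 and −0.61.

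Germ cells are a small share of a newborn testis, so the germ-cell content of each library was measured beside the transcripts. The summed level of 12 germ-cell markers was 316 to 542 CPM in the libraries with Pld6 and 139 to 579 CPM in those without. None of the 12 was called in the P0 comparisons, in which 0% to 0.0755% of all genes were. Pld6 itself was not called in Pld6 KO against WT (edgeR adjusted p = 0.0586), so a missing call does not show equal content. Divided by the marker sum, 4930470H14Rik was at 3.95% to 6.90% of the germ-cell marker level with Pld6 and at 32.2% to 70.7% without. Olfr856-ps1 was at 8.32% to 9.57% and 36.6% to 97.1%. Gm17644 was at 4.885% to 6.841% and 10.25% to 49.7%, and A630089N07Rik at 3.19% to 5.50% and 6.88% to 29.3%. Ranges of these 4 stayed apart, but they were chosen on that contrast, so nothing is read from it. 2610507I01Rik was at 11.2% to 17.3% with Pld6 and at 0.660% to 21.8% without. The overlap came from Pld6 KO replicate 1, which had the lowest germ-cell marker level of all libraries (139 CPM), 6 counts of Dnmt3l and the highest 2610507I01Rik among libraries without Pld6. In the other 6, it was at 0.660% to 3.20%. Whether germ-cell content has a part in that library's value was not tested.

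Markers of other cells overlapped between testes with and without Pld6. Summed levels were 1487 to 2700 CPM with Pld6 and 1676 to 2289 CPM without for Sertoli cells, and 1520 to 2666 CPM and 1264 to 3608 CPM for Leydig cells. They were 673 to 1066 CPM and 963 to 1590 CPM for peritubular and smooth muscle cells, and 8.65 to 21.0 CPM and 19.9 to 29.0 CPM for the epididymal duct. The last 2 lists were higher in most libraries without Pld6, and their part in the transcripts' levels was not tested. Endothelium, macrophages, red blood cells, spermatogonia, L/Z spermatocytes and later germ cells overlapped as well, with Dnmt3l KO replicate 1 the highest for the last 2.

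**Figure D3:**
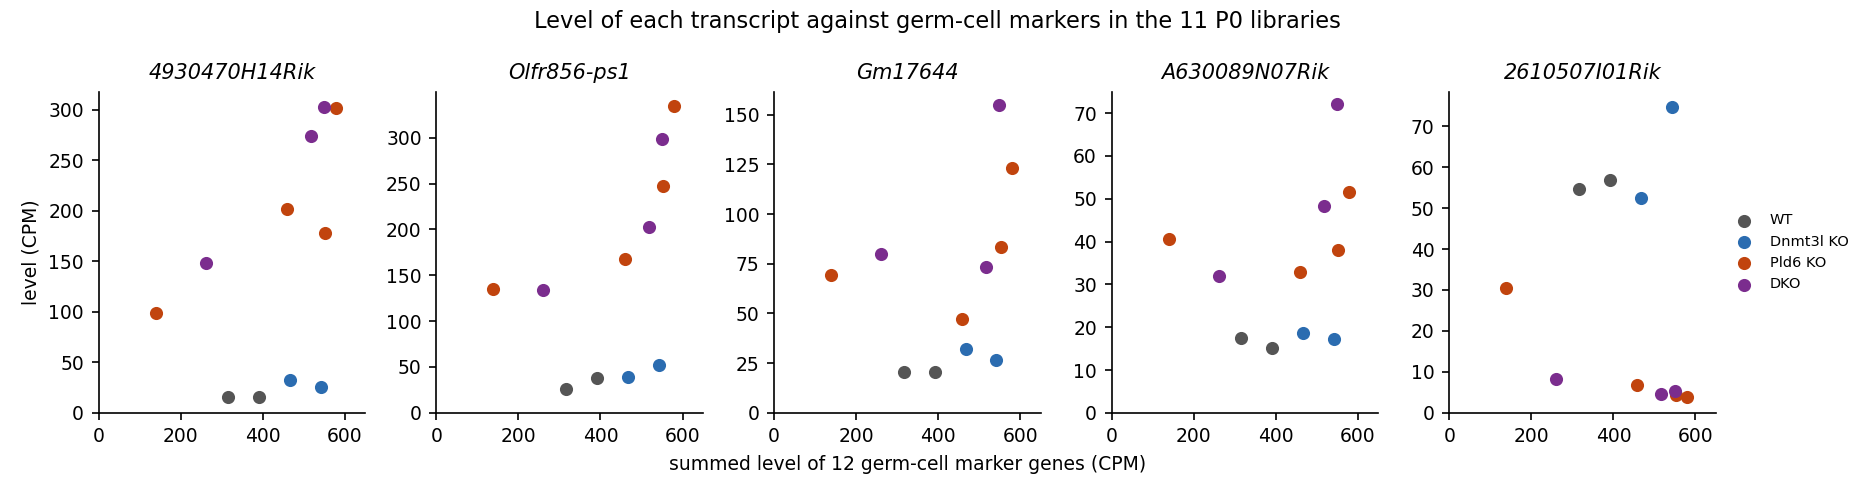
Level in CPM of each transcript against the summed level in CPM of 12 germ-cell markers, each point being 1 of the 11 P0 libraries, coloured by genotype. Libraries without Pld6 lie above the others for the 4 higher transcripts, which were chosen on that contrast. No library with Pld6 had a marker sum under 316 CPM. For 2610507I01Rik the library with the fewest germ-cell markers (139 CPM) is the highest of those without Pld6.

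The transcripts were not picked on the effect of Dnmt3l, and that effect was tested. The same libraries entered the Pld6 contrasts of the choice, so the estimates are not independent of that choice. For Dnmt3l KO against WT at P0 no gene was called by edgeR's quasi-likelihood test (0%), while 2056 had an unadjusted p under 0.05 and DESeq2 called 71. The deleted gene Dnmt3l was itself not called (log2 fold change −5.23, SE 1.39, edgeR adjusted p = 0.257). A missing call here therefore does not show a missing change. All 5 transcripts had positive log2 fold changes that did not pass. The value was 0.89 (SE 0.43, edgeR adjusted p = 0.395) for 4930470H14Rik. It was 0.52 (SE 0.41) for Olfr856-ps1, 0.51 (SE 0.40) for Gm17644, 0.14 (SE 0.31) for A630089N07Rik and 0.19 (SE 0.68) for 2610507I01Rik. Their adjusted p was 0.593, 0.593, 0.861 and 0.918 in the edgeR fit. Over the 742 other noncoding genes tested, the median log2 fold change was 0.19, against 0.030 over all tested genes. The Dnmt3l KO libraries of 4930470H14Rik (25.95 and 32.2 CPM) lay above the WT libraries (15.5 and 15.9 CPM). So did those of Olfr856-ps1 and Gm17644, while A630089N07Rik and 2610507I01Rik overlapped. The number of all genes that lie apart in that way was not counted, so nothing is read from these ranges. The summed germ-cell markers were also higher in Dnmt3l KO (467 and 542 CPM) than in WT (316 and 391.5 CPM), and their part in these values was not tested. Without Dnmt3l KO replicate 1, whose markers of later germ cells stood apart, the log2 fold changes were 1.04 for 4930470H14Rik, 0.30 for Olfr856-ps1, 0.63 for Gm17644, 0.19 for A630089N07Rik and −0.093 for 2610507I01Rik, and no gene was called.

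Loss of Dnmt3l on top of Pld6 gave no call either. For DKO against Pld6 KO edgeR called 0% of genes (957 had an unadjusted p under 0.05, and DESeq2 called 6). Fitted log2 fold changes were 0.31 (SE 0.30) for 4930470H14Rik, −0.064 (SE 0.30) for Olfr856-ps1, 0.34 (SE 0.29) for Gm17644 and 0.31 (SE 0.23) for A630089N07Rik. That of 2610507I01Rik was −0.93 (SE 0.58, edgeR adjusted p = 0.844) and turned to 0.25 without Pld6 KO replicate 1. Levels in the 2 genotypes overlapped for all 5. Additivity was fitted as the effect of losing Pld6 in the absence of Dnmt3l less the effect in its presence. Both effects were contrasts that the choice used, so additivity is not independent of the choice. The value was −0.58 (SE 0.52), −0.58 (SE 0.51), −0.16 (SE 0.50), 0.17 (SE 0.39) and −1.12 (SE 0.89) in the order 4930470H14Rik, Olfr856-ps1, Gm17644, A630089N07Rik and 2610507I01Rik. Its adjusted p was 0.624 to 0.913 in the edgeR fit, in which 0% of genes passed (1740 had an unadjusted p under 0.05, and DESeq2 called 54). Without Pld6 KO replicate 1 the value of 2610507I01Rik was 0.056.

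**Figure D4:**
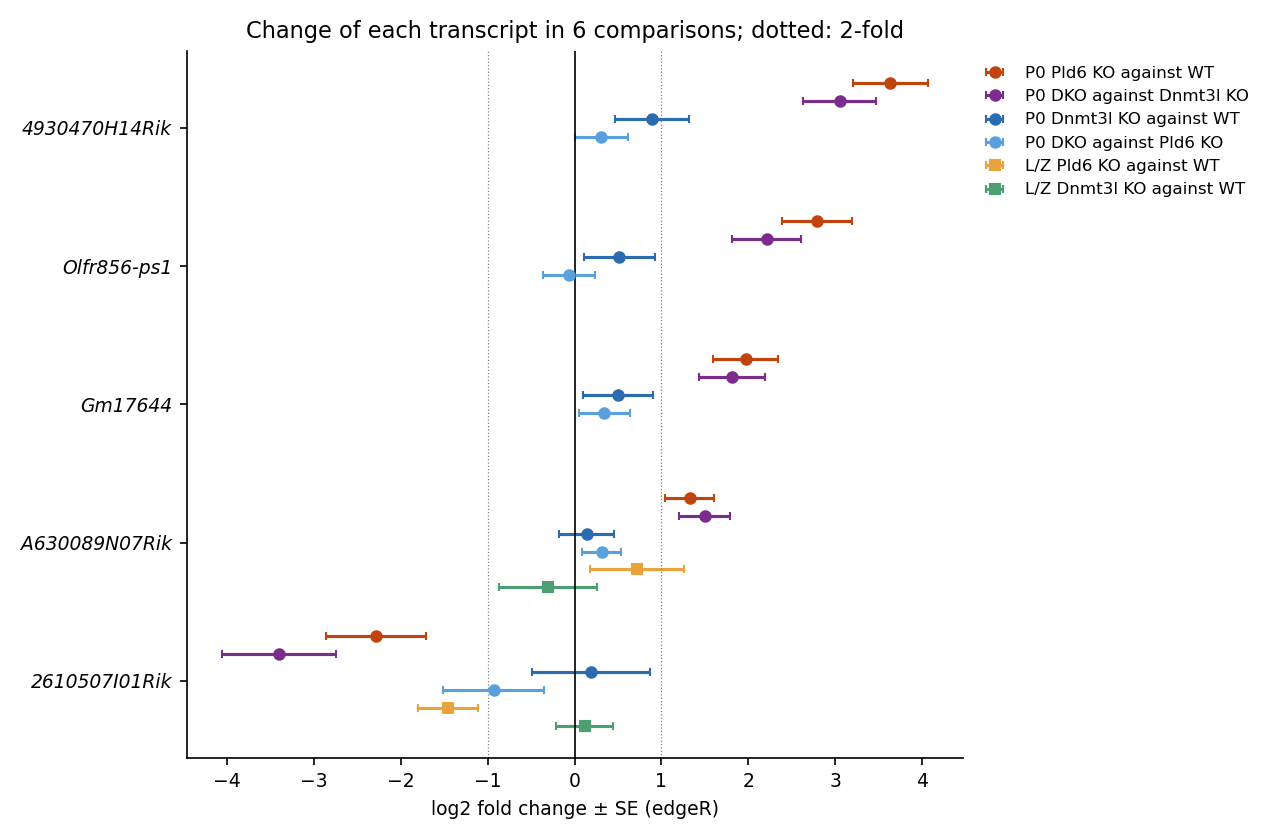
Log2 fold change with its SE from edgeR (x axis) of each transcript (y axis) in 6 comparisons, circles for P0 and squares for L/Z, with dotted lines at a 2-fold change. The 2 comparisons that remove Pld6 at P0 lie beyond the lines for all 5 transcripts, those that remove Dnmt3l lie within them, and L/Z values exist for A630089N07Rik and 2610507I01Rik alone.

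In L/Z spermatocytes most of the transcripts were near or below detection. 4930470H14Rik had 0 counts in all 6 libraries, which allows up to 3 counts, or 0.206 to 0.578 counts per 1000000 fragments, in a library (counting error only). Gm17644 had 4 and 1 counts in the WT libraries, 0 and 3 in those lacking Pld6 and 2 and 3 in those lacking Dnmt3l. For Olfr856-ps1 the WT counts were 6 and 3, the Pld6 KO counts 2 and 5 and the Dnmt3l KO counts 4 and 15. In CPM the Dnmt3l KO libraries of Olfr856-ps1 (0.800 and 1.07) lay above the other 4 (0.255 to 0.508), on few counts. How many of all genes lie apart in that way was not counted, so nothing is read from it. In an edgeR fit without the filter on low counts, Olfr856-ps1 had a log2 fold change for Dnmt3l KO of 1.28 (SE 0.91, adjusted p = 0.453) against WT. Against Pld6 KO it was 1.40 (SE 0.94, adjusted p = 0.551). For 4930470H14Rik and Gm17644 a difference between genotypes was not detectable at this depth. Counts at P0 and L/Z come from tables scaled separately and from different tissues and read types, and their levels were not compared.

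2610507I01Rik was measurable in spermatocytes. It had 125 and 150 counts (10.6 and 12.75 CPM) in WT spermatocytes, 24 and 62 counts (3.49 and 4.89 CPM) in those lacking Pld6, and 68 and 165 counts (13.6 and 11.8 CPM) in Dnmt3l KO. Both Pld6 KO libraries lay below all 4 others, with a WT mean of 11.7 ± 1.53 CPM (SD, n = 2), a Pld6 KO mean of 4.19 ± 0.990 CPM and a ratio of 2.79. Of all tested genes, 5.65% did not overlap in that direction. The log2 fold change for Pld6 KO against WT was −1.46 (SE 0.35), with an unadjusted p of 0.00143 and an adjusted p of 0.193 in edgeR's quasi-likelihood test, and was not called. In that comparison 33 of 14662 genes (0.225%) were called and 3.55% had an unadjusted p under 0.05 and a lower value. Over all alternatives and left-out libraries the log2 fold change was −1.74 to −1.06 and the adjusted p was 0.0601 to 0.576.

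Against Dnmt3l KO cells the Pld6 KO level of 2610507I01Rik was also lower. The log2 fold change of Dnmt3l KO over Pld6 KO was 1.57 (SE 0.35), with an edgeR adjusted p of 0.113, and 7 genes (0.0477%) were called. With DESeq2's Wald test (adjusted p = 0.0140) or without the filter on low counts in edgeR (adjusted p = 0.0464) the gene was called, and over all alternatives the adjusted p was 0.0140 to 0.473. This comparison and the preceding one share the Pld6 KO libraries. Dnmt3l KO and WT differed by 0.12 (SE 0.33, edgeR adjusted p = 0.850), in a comparison where 802 genes (5.47%) were called.

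A630089N07Rik had 25 and 20 counts (2.12 and 1.70 CPM) in WT spermatocytes, 21 and 41 counts (3.05 and 3.23 CPM) in those lacking Pld6, and 5 and 27 counts (1.00 and 1.93 CPM) in Dnmt3l KO. Both Pld6 KO libraries lay above the other 4, as did 6.1% of all tested genes. Its log2 fold change was 0.72 (SE 0.54, edgeR adjusted p = 0.697) for Pld6 KO against WT, −0.30 (SE 0.56, adjusted p = 0.765) for Dnmt3l KO against WT and −1.02 (SE 0.56, adjusted p = 0.363) for Dnmt3l KO against Pld6 KO. None passed the test.

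**Figure D5:**
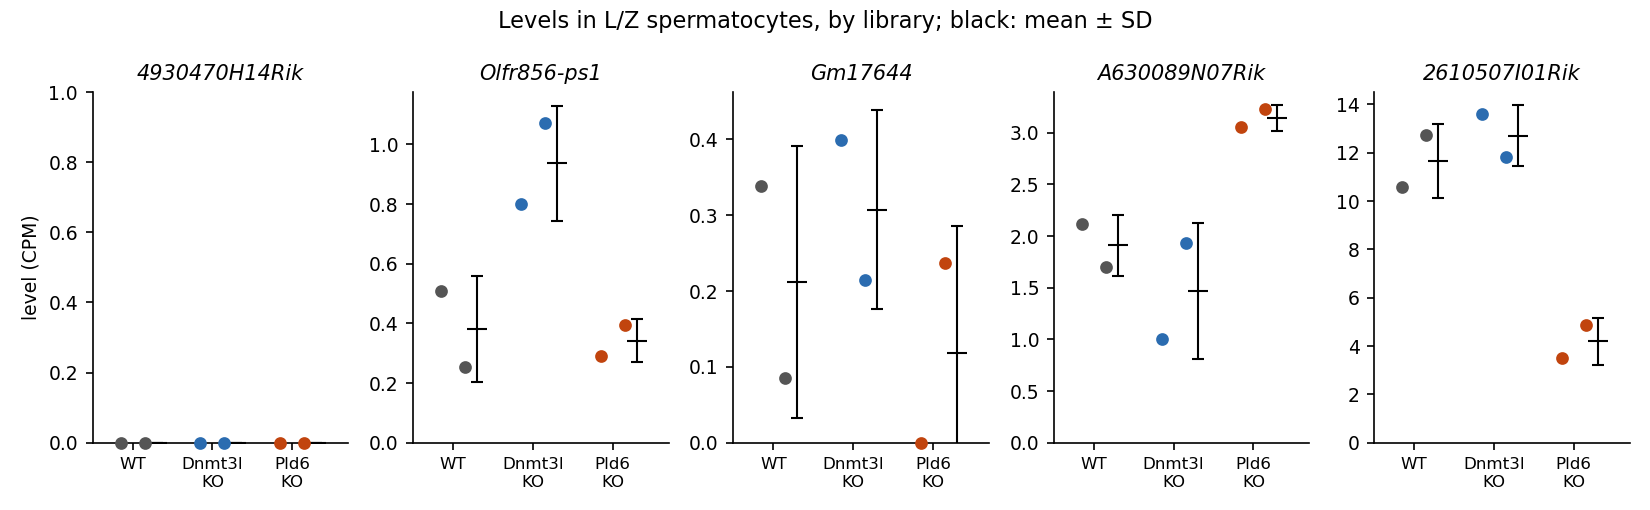
Level in CPM of the 5 transcripts in each of the 6 L/Z libraries, by genotype, with the group mean ± SD in black, cut at 0. 4930470H14Rik is at 0 throughout, Olfr856-ps1 and Gm17644 are near or under 1 CPM, and 2610507I01Rik is at 3.49 and 4.89 CPM in Pld6 KO against 10.6 to 13.6 CPM in the other 4 libraries.

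Genes next to the transcripts were examined in the same fits. Within 100 kb of the 5 genes RefSeq lists 21 other genes, of which 15 were in the tables and 10 were tested at P0. None of the 10 was called in the combined Pld6 contrast, where 0.044% of all genes were, and DESeq2 called 1. Tested genes that were the nearest on a side included Zfp317, 7.3 kb from Olfr856-ps1 (−0.070, SE 0.10). Another was Sulf1, which encodes a sulfatase of heparan sulfate, 19.1 kb from Gm17644 (0.98, SE 0.31, edgeR adjusted p = 0.25). For 2610507I01Rik they were Guk1, which encodes guanylate kinase, 5.58 kb away (0.23, SE 0.14), and Mrpl55, 54 bases away and described below. 4930470H14Rik lies 348 kb from Nox3 and 36.45 kb from 4930548J01Rik, neither of which had enough counts. Left of A630089N07Rik the nearest annotated gene is the pseudogene Vmn2r-ps112 at 32.1 kb, and none is annotated to its right.

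Mrpl55, which encodes a protein of the mitochondrial ribosome, starts 54 bases from 2610507I01Rik and is read in the opposite direction. Its combined log2 fold change without Pld6 at P0 was −0.70 (SE 0.23, edgeR adjusted p = 0.265). In L/Z spermatocytes it was at 36.9 to 44.6 CPM with both genes intact, 18.75 to 23.7 CPM without Pld6 and 33.4 to 48.8 CPM without Dnmt3l. The Pld6 KO libraries thus lay below the rest, as for 2610507I01Rik, with a log2 fold change of −0.93 (SE 0.27) and an edgeR adjusted p of 0.320 against WT.

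2610507I01Rik also lies on the chromosome of the deleted gene, 581.5 kb from Pld6. Of 78 tested genes within 2 Mb of Pld6, the P0 ranges with and without Pld6 did not overlap for 2 lower genes and 0 higher ones, against 0.591% and 0.774% of all genes. The 2 were 2610507I01Rik, which was chosen on that contrast, and the zinc finger gene Zfp39, 880 kb from Pld6, at 17.5 to 21.7 CPM with Pld6 and 8.96 to 15.9 CPM without (log2 fold change −0.48, SE 0.16). The median log2 fold change of the 78 was −0.036, against 0.0049 for all genes. In L/Z spermatocytes, 8 of the 78 (10.3%) were lower without overlap and 5 (6.41%) higher, against 5.65% and 6.1% of all genes, with a median of −0.11. Among the 8, besides 2610507I01Rik, were the noncoding gene Med9os (−1.28, SE 0.58), Olfr316 (−2.15, SE 0.885) and the ubiquitin ligase gene Trim17 (−1.20, SE 0.57).

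Genes with a part of the starting sequence of 4930470H14Rik or Gm17644 near their own start were looked up next. The words were all those of 20 bases in the first 400 bases of either transcript. In the first 400 bases of a transcript, 101 annotated genes held at least 10 of these words. Of the 101, 27 were in the tables and 21 were tested at P0. Besides the 2 transcripts themselves these were 19 genes, such as Caps2 (combined log2 fold change 0.25, SE 0.40) and Stard6 (−0.49, SE 0.26), the highest and lowest of them. None of the 19 was called or exceeded 2-fold, and their median was −0.045 against 0.0049 for all tested genes. The 19 shared from 39 words (Stard6) to 319 (Samsn1), against 381 in each of the 2 transcripts, so some held only a part of the sequence. All 19 have more than 1 annotated transcript, so their gene counts also hold transcripts that start elsewhere. The list was drawn up after the values were seen.

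Among noncoding genes as a whole, 747 of 3404 were tested at P0. The 742 besides the 5 transcripts had a median combined log2 fold change of −0.012 without Pld6, and none of them was called by edgeR. Past 2-fold were 49 of them (6.60%), against 2.585% of all tested genes. Just short of a call were Atp6v0c-ps2 (12.7, SE 2.03, edgeR adjusted p = 0.0634) and D030025P21Rik (2.75, SE 0.52, edgeR adjusted p = 0.107). The former was at 0 CPM with Pld6 and 0 to 125 CPM without. The latter was at 0.085 to 0.42 CPM and 0.477 to 3.03 CPM. Of 30 well-known long noncoding RNAs, such as H19, Meg3, Malat1 and Neat1, 26 were tested at P0 and none was called, with a median of 0.057. In L/Z spermatocytes 21 were tested, of which 0 were called in Pld6 KO (0.225% of all genes) and 3 in Dnmt3l KO (5.47% of all genes). The 3 were higher, as were 570 of the 802 genes called, and were Xist (log2 fold change 1.89, SE 0.35), Ftx (1.42, SE 0.34) and Mir17hg (1.28, SE 0.34). Of 642 other noncoding genes tested in spermatocytes, 70 were past 2-fold in Pld6 KO and 1 was called. It was 1700008K24Rik, with 68 and 179 counts in WT and 7 and 8 in Pld6 KO (log2 fold change −3.71, SE 0.60). It also had 12 and 31 counts in L/Z Dnmt3l KO, and 180 in P0 Dnmt3l KO replicate 1. Summed markers of later germ cells at L/Z were 48.7 and 69.5 CPM in WT and 16.4 and 31.8 CPM in Pld6 KO. They were 18.6 and 13.9 CPM in Dnmt3l KO, and their part in these counts was not tested. Other noncoding genes that were not called in Pld6 KO had counts in 1 genotype alone of WT and Pld6 KO. Examples were 1700042G15Rik with 37 and 36 counts in WT and 0 in both Pld6 KO libraries, and the pseudogene Mug-ps1 with 0 in both WT libraries and 29 and 22 in Pld6 KO. In L/Z Dnmt3l KO, 1700042G15Rik had 0 in both libraries and Mug-ps1 had 43 and 16, and both genes were called there. 1700042G15Rik also had 30 counts in P0 Dnmt3l KO replicate 1. Both genes were named after their values were seen.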

How the data were processed

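Per the labels and the study's methods, poly(A) RNA was sequenced after TruSeq stranded preparation, as 100-bp pairs at P0 and single 50-bp reads at L/Z. The authors used TopHat and Cuffdiff on mm10 (versions not given in the sources used here). Their deposited tables, 1 per stage, list estimated counts of fragments (98.4% of L/Z and 98.3% of P0 values whole within 0.001) and FPKM for 23980 genes and each library. Genes with a status other than OK were dropped (6 at L/Z, 2 at P0). Replicates are numbered from 0 in the tables and were taken in the order of the labels, which affects names of single libraries only.

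Rounded counts were fitted with edgeR 4.0.16 under R 4.3.3 (filterByExpr, TMM, quasi-likelihood F test, all groups of a stage in 1 fit), with Benjamini-Hochberg adjustment over 15901 genes at P0 and 14662 at L/Z. A call needed an adjusted p under 0.05 and, except for additivity, a fold change over 2. The combined Pld6 contrast is the mean of Pld6 KO against WT and DKO against Dnmt3l KO. The same model was tested on simulated data: in L/Z Pld6 KO against WT (14662 genes) it called 61% of 100 genes changed by a log2 of 1.5 and 89% of 100 changed by 3. In P0 Dnmt3l KO against WT (15901 genes) it called 64% and 93%. In the real data, Dnmt3l itself was not called in that comparison (log2 fold change −5.23, edgeR adjusted p = 0.257). Nor was Pld6 in P0 Pld6 KO against WT (−5.115, edgeR adjusted p = 0.05855). The simulated shares may therefore be too high for the real libraries.

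The members and all lists were chosen with earlier results of these data known, and motifs and shared sequence were chosen after values were seen. Named genes were the members, Pld6, Dnmt3l, nearest neighbours, the 3 genes most correlated with each member (log2 CPM, prior count 2), called noncoding genes and non-overlapping genes near Pld6, and others were named after their values were seen. Sequences came from RefSeq GRCm38.p6 and GENCODE vM21 and were aligned locally with Biopython 1.88. Alternatives were DESeq2 1.42.0 (size factors, Wald test), limma 3.58.1 on log2(FPKM + 1) and log2(FPKM + 0.1), no filter, no fold threshold, only the compared groups, the replicate number as a block and leaving out each library. A factor for libraries rich in 45S RNA and a crossed block were added after seeing the data. The values of 1 neighbouring gene are not reported here.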

Additional observations from a re-analysis of the deposited data

Results flagged for a closer look

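Of 18 groups of values at P0 large enough to be examined for a library far from the others, 1 stood out, and chance gives about 1 in 20. It was 2610507I01Rik in the 4 Pld6 KO testes, where replicate 1 had 30.39 CPM against 3.82 to 6.85 CPM in the other 3, a gap of 0.886 of the group's range. The same library had the lowest summed germ-cell markers of the 11 (139 CPM) and 6 counts of Dnmt3l, against 30 to 145 in the other Pld6 KO testes. It also had 35 counts of Prm1 and 20 of Tnp1, both markers of later germ cells. These were the highest at P0, where the medians were 1 and 2. Its summed red blood cell markers (956 CPM) were the highest of the 11 as well. Whether these values have a part in the level of 2610507I01Rik was not tested.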

How the results depend on the processing

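All 5 transcripts stayed past 2-fold in the 3 P0 contrasts of Pld6 under every alternative and left-out library, and none was called for Dnmt3l at P0 or in L/Z Pld6 KO against WT. In L/Z Dnmt3l KO against Pld6 KO, 2610507I01Rik (adjusted p 0.0140 to 0.473 over 16 alternatives) made 1 call without the filter, 1 with DESeq2's Wald test and 1 with the crossed block, against 0. Replicate numbers were not taken to pair the samples, since not every pair's deviations correlated over 0.1 (−0.332 to 0.192 at P0, and at L/Z −0.144 and −0.135 with Dnmt3l KO). At L/Z, however, WT and Pld6 KO samples of the same number correlated at 0.485, and both replicates 1 were rich in 45S RNA. The replicate block turned Olfr856-ps1 in DKO against Pld6 KO to 0.14 and Gm17644 in additivity to 0.10, and changed no other member's direction. It left 0 genes called in P0 Pld6 KO against WT (1 without it) and in DKO against Dnmt3l KO (12 without it). The crossed block raised L/Z calls over all genes to 1282 for Dnmt3l KO against WT and 516 for Dnmt3l KO against Pld6 KO. The factor for 45S RNA turned 2610507I01Rik in L/Z Dnmt3l KO against WT to −0.060. DESeq2 called 1 neighbouring gene against 0 and 15 noncoding genes against 5 in the combined contrast. Those 5 are the transcripts that were chosen on it, so nothing is read from their number. Leaving out libraries turned small values: 2610507I01Rik gave −0.093 to 0.40 in P0 Dnmt3l KO against WT, −1.24 to 0.25 in DKO against Pld6 KO, −1.43 to 0.056 in additivity and −0.013 to 0.26 in L/Z Dnmt3l KO against WT. In DKO against Pld6 KO it gave −0.40 to 0.20 for Olfr856-ps1, −0.073 to 0.62 for Gm17644 and −0.022 to 0.56 for A630089N07Rik, and in additivity −0.58 to 0.12 for Gm17644 and −0.16 to 0.42 for A630089N07Rik. In the combined contrast 2610507I01Rik was −3.43 without Pld6 KO replicate 1. The cause was not tested in any of these. Over all settings, genes called ranged from 4 to 73 (main 7) in the combined contrast, 0 to 14 (1) in P0 Pld6 KO against WT, 0 to 258 (12) in DKO against Dnmt3l KO, 0 to 71 (0) in P0 Dnmt3l KO against WT, 0 to 6 (0) in DKO against Pld6 KO, 0 to 54 (0) in additivity, 1 to 101 (33) in L/Z Pld6 KO against WT, 1 to 1282 (802) in L/Z Dnmt3l KO against WT and 0 to 516 (7) in L/Z Dnmt3l KO against Pld6 KO.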
